A study of Mus musculus with 9 samples.

Results

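Described here are 10 genes of the acute-phase response and of its NF-kB and C/EBP regulators, in cultured mouse embryonic fibroblasts (MEFs) that carry mutations in the thiol oxidases of the endoplasmic reticulum (ER). The genes are Lcn2, Saa3, Serpina3n, Ptx3, Hp, Orm1, Cebpb, Cebpd, Nfkbiz and Nfkbia. They were picked by name, with levels on these same arrays already known, as genes around Lcn2, Saa3 and Serpina3n that were raised in both mutants. Each had 1 probe set annotated to its symbol alone, and together they make up 10 of the 19938 genes measured. The picked genes differed widely in how far that description held, as given below.

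TM MEFs are mutated in both ERO1 isoforms and lack PRDX4 (m/m for Ero1α and for Ero1β, with Prdx4 m/y). DM MEFs are mutated in both ERO1 isoforms alone (m/m for each, with Prdx4 +/+). The sample labels call the remaining genotype wild type (WT), whereas the methods describe control MEFs that were m/+ for Ero1α, m/m for Ero1β and +/+ for Prdx4, so that the Ero1β mutation may be shared by all 3 genotypes. All samples are labelled as C57B/L6 in background and as fibroblasts transformed with T antigen, while the study's methods name both primary and large T immortalised MEFs. There were 3 arrays of each genotype. Neither the labels nor the methods say whether these came from separate cultures, embryos or clones, so p-values measure only the spread between arrays, which may be technical.

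The acute-phase response is the change in plasma and tissue proteins that follows infection, injury or cytokine exposure. Cytokines such as IL-1, TNF, IL-17 and IL-6 act through NF-kB, STAT3 and the C/EBP family of transcription factors. NF-kB is held inactive by IkB proteins, several of which are themselves NF-kB targets, and C/EBPβ, C/EBPδ and the nuclear IkB protein IkBζ help to switch on a secondary set of genes that includes Lcn2. Although the liver makes most acute-phase proteins, fibroblasts are known to make some of them, such as lipocalin 2, SAA3 and pentraxin 3.

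Values are log2 RMA levels, on which a difference of 1 is a doubling. Calls required an adjusted p under 0.05 (limma, Benjamini-Hochberg over all genes) together with a difference of over 1.5-fold. Ero1a lay at 8.98 to 9.12 on TM arrays, 9.41 to 9.52 on DM arrays and 11.84 to 11.88 on WT arrays, and Prdx4 at 5.96 to 6.75, 10.45 to 10.88 and 10.44 to 10.66 in that order of genotypes. Ero1b was called in neither mutant and lay at 7.86 to 8.02, 7.68 to 7.72 and 7.52 to 7.72, and array medians over all probe sets were 7.62 to 7.72. The RNA Xist, made by the inactive X, stood at 5.64 to 5.83 in TM, 12.50 to 12.63 in DM and 5.65 to 5.76 in WT MEFs. The 3 DM arrays thus stand apart from those of both TM and WT MEFs. The m/y given for X-linked Prdx4 in TM MEFs denotes males, whereas high Xist is a trait of female cells. TM and DM MEFs thus appear to differ in sex as well as in Prdx4. The +/+ given for Prdx4 in control MEFs denotes females, although Xist was low in WT MEFs. The part of sex and of Xist in the differences of DM from either genotype was not tested. Over all genes, 1115 were called higher and 709 lower in TM than in WT MEFs, a 61.1% share of higher calls that was 50.6% (972 higher, 948 lower) with arrays centred on their medians. In DM MEFs the corresponding calls were 1052 higher and 1131 lower (48.2% higher), against 870 and 1504 (36.6%) with centred arrays.

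Markers of cell types were read beside the genes. Of 12 fibroblast markers, 9 lay above the array median on all arrays, and the mean of the list was 10.89 to 10.98 in TM, 10.07 to 10.09 in DM and 10.31 to 10.33 in WT MEFs. Vim, the brightest of them, averaged 14.15 in TM, 14.16 in DM and 14.18 in WT MEFs. The list went both ways, with 5 called higher and 1 lower in TM, and 2 higher and 3 lower in DM MEFs. Thy1 was 2.93 higher in TM than in WT MEFs, and Pdgfra and Col1a2 were 1.91 and 1.71 lower in DM MEFs. Dcn was higher in both, by 1.83 in TM and 1.14 in DM, and S100a4 was lower in both, with differences of -1.46 in TM and -2.28 in DM MEFs. Of 15 markers of macrophages and leukocytes, 12 lay below the array median on all arrays. Among them were the pan-leukocyte gene Ptprc and the macrophage genes Adgre1 and Csf1r, named here as defining markers. Cd68, a macrophage gene and the brightest of the list, lay above the median on all arrays. It averaged 9.19 in TM, 8.93 in DM and 9.22 in WT MEFs. None of the 15 was called higher in either mutant by limma, also at an unadjusted p under 0.05, and the list mean was 6.50 to 6.61, 6.52 to 6.67 and 6.73 to 6.76 in TM, DM and WT MEFs. The 1 gene of this list called lower in each mutant was Ly6g, which averaged 6.14 in TM, 5.90 in DM and 8.53 in WT MEFs, and the list mean moved with it. Of 11 hepatocyte markers, 7 lay below the array median on all arrays and 1, Apoa1, above it. Ahsg was called higher in DM MEFs, by 1.27, with a difference of -0.15 in TM. Alb was called lower in both mutants, with differences of -0.74 in TM and -1.10 in DM MEFs. Its WT arrays were spread widely, at 8.04, 6.54 and 7.10. Markers of epithelium and mesothelium differed from WT in both mutants, with more calls in DM MEFs. Of 12, 7 were called higher and 1 lower in DM, and 0 higher and 2 lower in TM than in WT MEFs by limma, and the list mean was 7.22 to 7.32 in TM, 9.52 to 9.60 in DM and 7.76 to 7.78 in WT MEFs. Upk1b and Upk3b, 2 mesothelial genes, were higher in DM than in WT MEFs by 5.57 and 5.07. Msln was lower in both mutants, with differences of -3.61 in TM and -1.43 in DM MEFs. Krt19 was called lower in TM, at -1.81, and was not called in DM MEFs, at -0.40. Of 8 adipocyte markers, 6 lay below the array median on all arrays, among them Adipoq and Plin1, and 2 were called higher in both mutants. These were Pparg, which encodes a regulator of fat cell formation, by 1.42 in TM and 2.19 in DM, and Lpl, the lipoprotein lipase gene, by 0.98 in TM and 3.75 in DM MEFs. The mean of that list was 7.09 to 7.20 in TM, 7.53 to 7.61 in DM and 6.72 to 6.82 in WT MEFs. In bulk RNA such as this, fewer cells of a type and less RNA per cell cannot be told apart. The part of these markers in the values below was not tested.

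A 300-base promoter, from 250 bases before the transcription start to 50 after it, was found in the RefSeq table for 6 of the 10 genes (build GRCm38.p6). The 250 bases before the start are printed for the 4 of these genes whose levels differed most between mutants and WT, and for Nfkbia, whose levels overlapped. They are chr2:32387740-32387989 for Lcn2 and chr7:46715677-46715926 for Saa3, both on the minus strand, chr3:66219637-66219886 for Ptx3 and chr12:104406458-104406707 for Serpina3n, both on the plus strand, and chr12:55492648-55492897 for Nfkbia, on the minus strand. Capitals mark matches, on either strand, to a C/EBP motif (TTGCNNAA) or a kappaB motif (GGANNNTCC, the same on both strands).
Lcn2: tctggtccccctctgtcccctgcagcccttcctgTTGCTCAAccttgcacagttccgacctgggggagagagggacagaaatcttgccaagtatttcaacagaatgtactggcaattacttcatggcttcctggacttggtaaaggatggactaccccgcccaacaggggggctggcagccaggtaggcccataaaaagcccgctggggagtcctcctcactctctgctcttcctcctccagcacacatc
Saa3: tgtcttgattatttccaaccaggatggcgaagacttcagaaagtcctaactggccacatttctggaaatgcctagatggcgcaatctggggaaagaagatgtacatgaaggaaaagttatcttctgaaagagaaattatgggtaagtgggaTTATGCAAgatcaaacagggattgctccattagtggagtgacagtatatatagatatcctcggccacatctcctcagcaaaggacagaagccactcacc
Ptx3: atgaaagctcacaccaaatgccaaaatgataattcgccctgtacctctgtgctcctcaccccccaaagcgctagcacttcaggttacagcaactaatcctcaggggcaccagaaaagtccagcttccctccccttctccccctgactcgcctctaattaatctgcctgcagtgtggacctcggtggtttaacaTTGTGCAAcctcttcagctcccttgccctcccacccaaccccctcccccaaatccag
Serpina3n: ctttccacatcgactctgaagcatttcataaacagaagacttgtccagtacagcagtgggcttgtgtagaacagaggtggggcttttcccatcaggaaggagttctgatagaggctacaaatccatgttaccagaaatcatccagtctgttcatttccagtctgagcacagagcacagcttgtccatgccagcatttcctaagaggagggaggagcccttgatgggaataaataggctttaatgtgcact
Nfkbia: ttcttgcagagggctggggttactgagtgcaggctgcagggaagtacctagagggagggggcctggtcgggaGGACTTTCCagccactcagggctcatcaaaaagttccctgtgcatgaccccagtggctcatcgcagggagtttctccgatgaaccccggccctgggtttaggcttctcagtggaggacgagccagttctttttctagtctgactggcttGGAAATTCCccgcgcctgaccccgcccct
The C/EBP motif was present in 3 of the 6 promoters and in 10.8% of the 32851 promoters of the table. It stood as TTGCTCAA 216 bases before the start of Lcn2, as TTATGCAA 99 bases before that of Saa3 and as TTGTGCAA 57 bases before that of Ptx3, these last on the opposite strand. The kappaB motif was found only in Nfkbia among the 6, with GGACTTTCC 178 and GGAAATTCC 29 bases before the start, and in 8.62% of all promoters. A STAT motif (TTCCNGGAA) and an AP-1 motif (TGANTCA), both the same on each strand, were in 0 of the 6 and in 1.15% and 7.81% of all. The looser kappaB spelling GGANNNNCC, which takes in the first, was in 6 of 6 and in 48.4% of all promoters. Among 531 promoters of genes called higher in both mutants, the C/EBP motif was in 14.5% and the kappaB motif in 11.9%. There the STAT motif was in 1.69%, the AP-1 motif in 5.65% and the looser kappaB spelling in 56.3%. The genes were picked as acute-phase genes and their NF-kB and C/EBP regulators, so nothing is read from these shares. Matches to the first 4 motifs did not overlap each other, and a match to letters is a description of the sequence only. Serpina3n and Cebpb held no match to the first 4 motifs in this window.

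Lcn2, Saa3 and Serpina3n showed the widest differences of the 10 genes. Lcn2 encodes lipocalin 2, a secreted protein that binds bacterial siderophores and so withholds iron. Its level was 13.11, 13.13 and 13.17 on the TM arrays, 12.74, 12.77 and 12.77 on the DM arrays and 7.69, 7.79 and 7.68 on the WT arrays. The genotypes did not overlap, in the order TM, DM, WT. Against WT the difference was 5.42 in TM (SE 0.055, 42.7-fold) and 5.04 in DM MEFs (SE 0.055, 33.0-fold), which are ranks 5 and 10 of 19938 genes ordered by rise. Because the genes were chosen for these differences, they are given without a test.

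Saa3 encodes serum amyloid A3, an apolipoprotein-like acute-phase protein made mainly outside the liver in mice. Its level was 13.18, 13.19 and 13.24 in TM, 12.11, 12.12 and 12.11 in DM and 7.65, 7.56 and 7.56 in WT MEFs, again without overlap. Against WT, Saa3 differed by 5.61 in TM (SE 0.053, 49.0-fold, rank 3) and 4.53 in DM MEFs (SE 0.053, 23.0-fold, rank 19). The other serum amyloid genes did not share this pattern. Saa1, Saa2 and Saa4 had mean levels of 3.88, 5.41 and 5.99 in TM, 4.01, 5.58 and 6.29 in DM and 3.94, 5.42 and 5.92 in WT MEFs, and none of them was called.

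Serpina3n encodes a secreted serine protease inhibitor of the α1-antichymotrypsin group. It read 11.47, 11.42 and 11.55 in TM, 9.35, 9.22 and 9.38 in DM and 6.82, 6.36 and 6.14 in WT MEFs. The 3 genotypes were well apart, and the WT arrays spread most (SD 0.34, against 0.066 in TM and 0.089 in DM). The difference from WT was 5.04 in TM (SE 0.13, 32.9-fold, rank 8) and 2.88 in DM MEFs (SE 0.13, 7.34-fold, rank 79). Serpina3n belongs to a cluster of closely related genes, and the sources used here do not say how far its probe set also reads the neighbours.

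**Figure D1:**
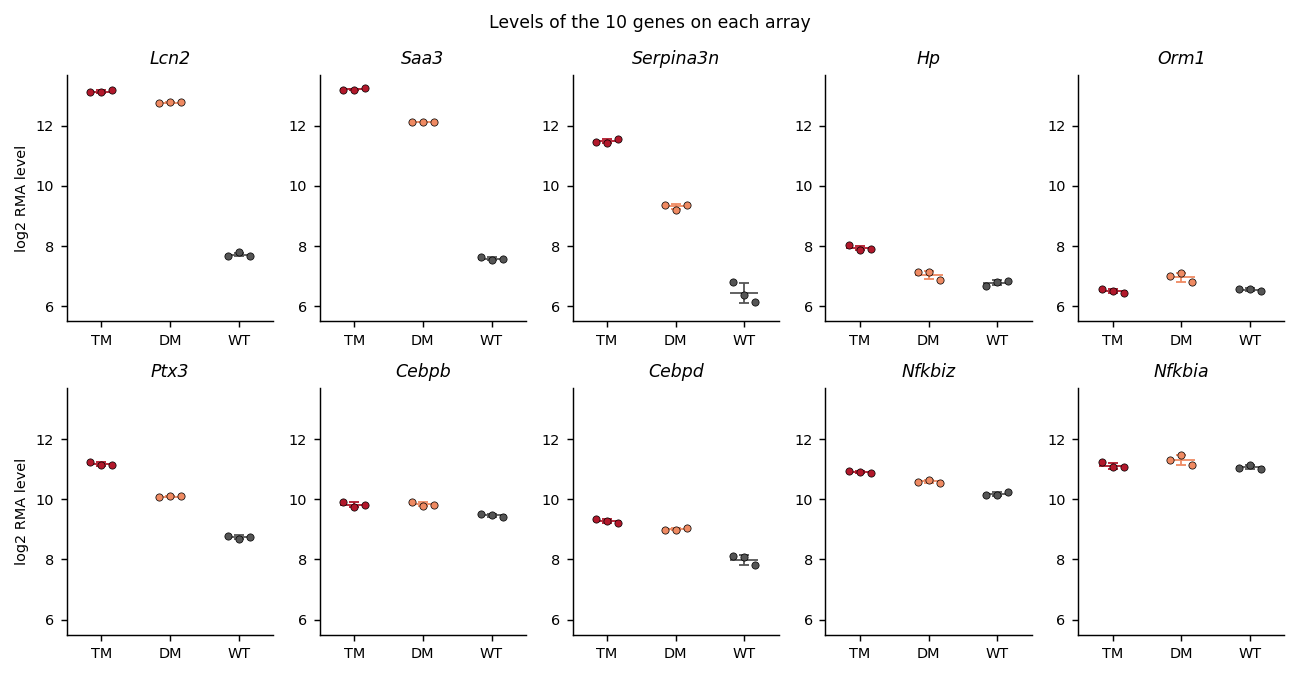
Log2 RMA levels of the 10 genes in TM (red), DM (orange) and WT (grey) MEFs, 1 panel a gene on 1 shared vertical scale. Each point is an array, and the marks with bars give the mean and SD of a genotype (n = 3). Lcn2, Saa3, Serpina3n and Ptx3 step down in the order TM, DM, WT, while Cebpb, Orm1 and Nfkbia stay within a narrow band.

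Ptx3 encodes pentraxin 3, a soluble pattern recognition protein made locally by fibroblasts and myeloid cells. Its level was 11.25, 11.15 and 11.13 in TM, 10.07, 10.09 and 10.09 in DM and 8.80, 8.67 and 8.76 in WT MEFs. The groups did not overlap, and DM lay between TM and WT. Ptx3 differed from WT by 2.44 in TM (SE 0.059, 5.41-fold, rank 97) and 1.35 in DM MEFs (SE 0.059, 2.54-fold, rank 332).

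Hp, which encodes the haemoglobin-binding protein haptoglobin, stood at 8.03, 7.88 and 7.90 in TM, 7.13, 7.13 and 6.87 in DM and 6.69, 6.81 and 6.86 in WT MEFs. Only the TM arrays lay above the array medians. The DM arrays lay just above the WT arrays. Hp differed from WT by 1.15 in TM (SE 0.080, 2.22-fold), past the 1.5-fold limit, and 0.26 in DM MEFs (SE 0.080, 1.20-fold), under it.

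Orm1 encodes orosomucoid 1, or α1-acid glycoprotein. Its level was 6.58, 6.52 and 6.44 in TM, 7.02, 7.10 and 6.80 in DM and 6.59, 6.57 and 6.50 in WT MEFs. All 9 arrays lay below the array medians, the DM arrays were the highest, and TM and WT overlapped. The difference from WT was -0.04 in TM (SE 0.076) and 0.42 in DM MEFs (SE 0.076, 1.34-fold), so that Orm1 does not meet the description of a gene raised in both mutants. The related Orm2 and Orm3 had mean levels of 5.15 and 5.66 in TM, 5.33 and 6.11 in DM and 5.10 and 5.84 in WT MEFs, and neither was called.

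The C/EBP factors differed from WT by less. Cebpd, which encodes C/EBPδ, a factor induced early by cytokines, read 9.34, 9.28 and 9.20 in TM, 8.99, 8.99 and 9.05 in DM and 8.10, 8.07 and 7.80 in WT MEFs, with no overlap among the genotypes. The difference from WT was 1.28 in TM (SE 0.079, 2.43-fold) and 1.02 in DM MEFs (SE 0.079, 2.03-fold). Cebpb, which encodes C/EBPβ, was at 9.91, 9.75 and 9.82 in TM, 9.92, 9.79 and 9.80 in DM and 9.49, 9.49 and 9.42 in WT MEFs. All mutant arrays lay above all WT arrays, while TM and DM overlapped. The difference was 0.36 in TM and 0.37 in DM MEFs (SE 0.064 each, 1.28-fold and 1.29-fold), under the 1.5-fold limit in each. C/EBPβ is also controlled at the level of its protein, which was not measured here.

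Of the 2 IkB genes, Nfkbiz encodes the nuclear protein IkBζ, a cofactor that NF-kB needs at secondary targets such as Lcn2. It read 10.93, 10.92 and 10.87 in TM, 10.58, 10.64 and 10.55 in DM and 10.14, 10.13 and 10.23 in WT MEFs, and the genotypes did not overlap. The difference from WT was 0.74 in TM (SE 0.056, 1.67-fold) and 0.42 in DM MEFs (SE 0.056, 1.34-fold). Nfkbia encodes IkBα, the cytoplasmic inhibitor that NF-kB itself induces. Its level was 11.23, 11.06 and 11.06 in TM, 11.29, 11.47 and 11.14 in DM and 11.04, 11.14 and 11.01 in WT MEFs, and each pair of genotypes overlapped. Against WT, Nfkbia differed by 0.05 in TM (SE 0.085) and 0.24 in DM MEFs (SE 0.085), so that Nfkbia, too, does not meet the description.

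Counted over the 10 genes, 7 were called higher in TM (5.59% of all genes were), 5 in DM (5.28%) and the same 5, Lcn2, Saa3, Serpina3n, Ptx3 and Cebpd, in both (2.67%). None was called lower in TM (3.56% of all genes) or in DM MEFs (5.67%). Hp and Nfkbiz passed in TM but stayed under the 1.5-fold limit in DM MEFs. With the adjusted p alone, and no fold limit, 8 passed in TM (13.8% of all genes) and 10 in DM (17.0%). Every TM array lay above every WT array in 8 of the 10 (18.3% of all genes) and every DM array above every WT array in 9 (22.5%). The median difference was 1.22 in TM and 0.72 in DM MEFs, beside -0.03 and 0.02 over all genes. The choice of genes used these comparisons, so nothing is read from the counts. As a share of the log2 difference in TM, that in DM was 93.1% for Lcn2, 80.6% for Saa3, 79.7% for Cebpd, 57.3% for Nfkbiz, 57.1% for Serpina3n, 55.3% for Ptx3 and 22.3% for Hp, both being measured against the same 3 WT arrays. Cebpb differed about equally in the mutants, and Orm1 and Nfkbia differed more in DM than in TM, as given above.

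**Figure D2:**
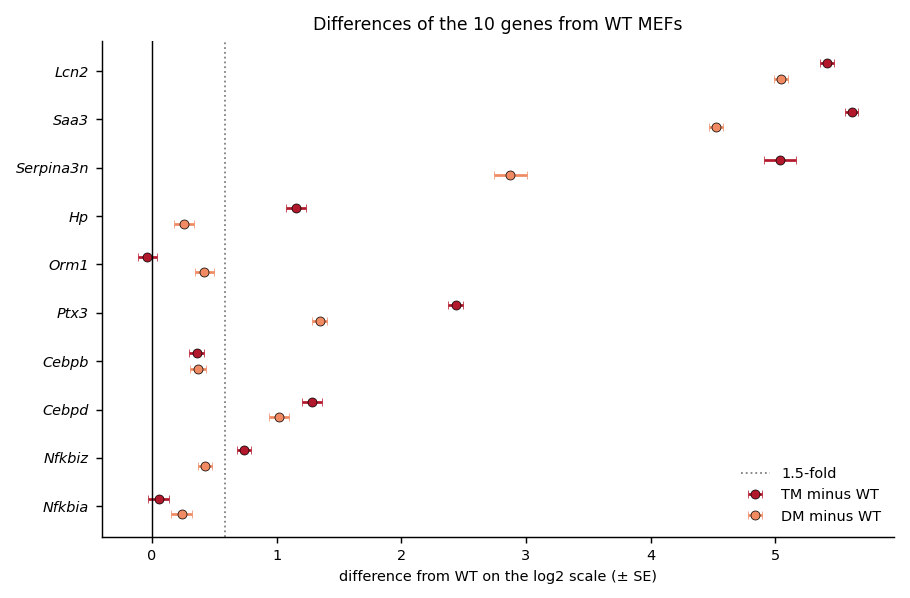
Difference from WT on the log2 scale for each of the 10 genes, in TM (red, upper point) and DM (orange, lower point) MEFs. Bars are SEs from the limma model (n = 3 arrays of each genotype), the solid line is no difference and the dotted line is 1.5-fold. Lcn2 and Saa3 lie beyond 4 in both mutants, and Cebpb, Orm1 and Nfkbia are short of the dotted line in both.

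TM and DM, which differ in Prdx4 and in Xist, were also set against each other. The levels of both mutants were known when the genes were chosen, so these differences, too, are given as a description. The calls here and in the next paragraph only sort them by size and spread. They are no test of the chosen genes, and nothing is read from their counts. Of the 10 genes, 4 passed the call as higher in TM than in DM MEFs (4.68% of all genes did) and 0 as lower by limma (3.61% of all genes), also at an unadjusted p under 0.05 and with the separate test of each gene that the study's methods name. The 4 were Serpina3n, higher by 2.16 (SE 0.13, 4.48-fold), Ptx3 by 1.09 (SE 0.059, 2.13-fold), Saa3 by 1.09 (SE 0.053, 2.13-fold) and Hp by 0.90 (SE 0.080, 1.86-fold).

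Smaller differences in the same direction, all under 1.5-fold, were seen for Lcn2 (0.37, SE 0.055), Nfkbiz (0.32, SE 0.056) and Cebpd (0.26, SE 0.079). Orm1 went the other way, at -0.46 in TM minus DM (SE 0.076), which is also under 1.5-fold. With the adjusted p alone, 7 of the 10 passed as higher in TM than in DM MEFs (15.4% of all genes did) and 1 as lower (16.5%). Every TM array lay above every DM array in the same 7 (18.5% of all genes) and below in Orm1 (21.6%). For Cebpb the difference was -0.01 (SE 0.064) and for Nfkbia -0.18 (SE 0.085), and the arrays of TM and DM overlapped in both. The median over the 10 genes was 0.34, beside -0.05 over all genes. DM MEFs also differed from TM MEFs in Xist and in the mesothelial markers given above, and the part of these in the differences was not tested.

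**Figure D3:**
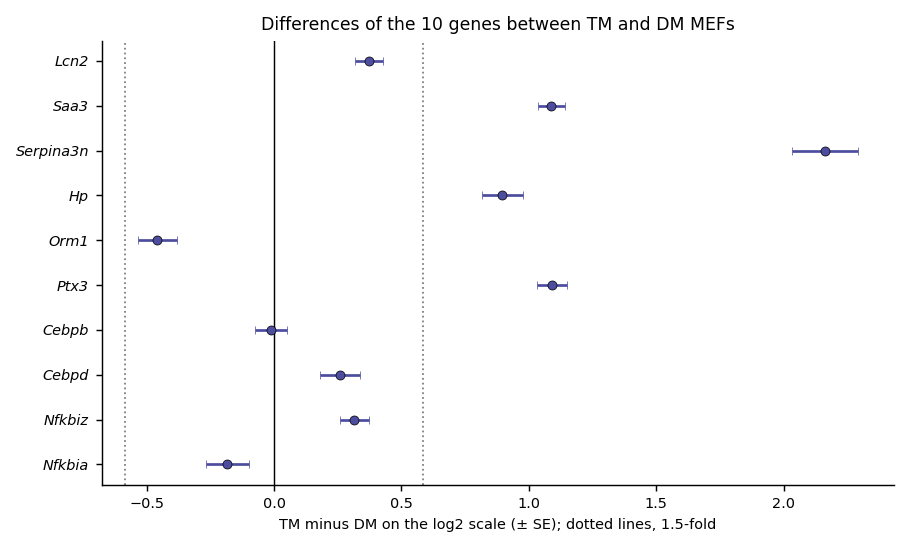
TM minus DM on the log2 scale for each of the 10 genes. Points are limma estimates with SE bars (n = 3 arrays of each genotype), and dotted lines mark 1.5-fold in either direction. Serpina3n, Ptx3, Saa3 and Hp lie to the right of the dotted line, and Orm1 and Nfkbia lie left of 0.

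Some of these values are tied, and the effect of the ties on the spread was not tested. In 5 of the 10 genes, 2 arrays held 1 identical value that was the median of the 9 arrays. These were 2 DM arrays for Saa3, Hp, Ptx3 and Cebpd, and a DM and a WT array for Nfkbia. The SD of Saa3 in DM MEFs was 0.00098, against 0.030 in TM and 0.052 in WT MEFs. That of Hp was 0.15 in DM, against 0.081 in TM and 0.085 in WT MEFs. How common such ties are over all genes was not counted.

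Other acute-phase proteins were mixed. Of 31 measured of 43 listed, 7 were called higher and 0 lower in TM MEFs by limma, also at an unadjusted p, and 6 higher and 1 lower in DM MEFs. The shares of all genes called were 5.59% higher and 3.56% lower in TM, and 5.28% higher and 5.67% lower in DM MEFs. The list median was 0.04 in TM and 0.10 in DM, beside -0.03 and 0.02 over all genes. Serping1, which encodes the C1 inhibitor of the complement and contact systems, rose by 4.15 in TM (adjusted p = 4.68e-11 from limma) and by 0.65 in DM MEFs. Its level was 11.05, 10.64 and 10.48 in TM, 7.09, 7.29 and 7.29 in DM and 6.62, 6.49 and 6.60 in WT MEFs, so that TM stood far above the others. Il1rn, which encodes the IL-1 receptor antagonist, rose by 3.67 in TM and by 0.70 in DM MEFs, a difference between the mutants of 2.97 (adjusted p = 5.85e-11 from limma).

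Lbp, which encodes the lipopolysaccharide-binding protein, ran the other way. It was at 9.80, 9.81 and 9.79 in TM, 11.69, 11.58 and 11.73 in DM and 6.85, 6.65 and 6.52 in WT MEFs. It rose by 3.13 in TM and by 4.99 in DM MEFs, and TM minus DM was -1.87 (adjusted p = 1.75e-09 from limma). Steap4, a metalloreductase gene, rose by 2.83 in TM and 3.13 in DM MEFs. The copper protein ceruloplasmin (Cp) rose by 2.61 and 1.51, and the chitinase-like secreted protein Chil1 by 2.89 and 1.45, both higher in TM than in DM MEFs (by 1.10 and 1.43, adjusted p = 1.99e-08 and 8.04e-08). Crp, Apcs, Fga, Fgb and Fgg were picked from the same list after their values were seen. They had differences of -0.15 to 0.09 in TM and -0.09 to 0.02 in DM MEFs and were not called. They do not stand for the list, in which Lbp, Cp and Serping1 rose as given above.

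Other genes that NF-kB induces moved in both directions. Of 35 measured, 11 were higher and 2 lower in TM, and 14 higher and 5 lower in DM MEFs. Shares over all genes were 5.59% higher and 3.56% lower in TM, and 5.28% higher and 5.67% lower in DM MEFs. The list had a median of 0.34 in each mutant, beside -0.03 and 0.02 over all genes. The cytokine gene Il6 was at 11.03, 10.97 and 11.19 in TM, 7.09, 7.54 and 7.22 in DM and 5.54, 6.26 and 5.72 in WT MEFs. It rose by 5.22 in TM (adjusted p = 8.64e-11 from limma) and by 1.44 in DM MEFs, and the mutants differed by 3.78 (adjusted p = 1.76e-09).

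Ccl20, a chemokine gene, rose by 3.07 in TM and 2.58 in DM, and Ch25h, a cholesterol hydroxylase gene, by 3.35 and 2.90. The adhesion molecule gene Icam1 rose by 1.44 in TM and 1.27 in DM MEFs. For these 3 genes TM minus DM was under 1.5-fold, at 0.48, 0.46 and 0.18. A pair of genes of prostaglandin E2 synthesis fell in DM MEFs. Ptgs2, which encodes cyclooxygenase 2, was at 13.50, 13.51 and 13.55 in TM, 10.91, 10.86 and 10.92 in DM and 13.31, 13.32 and 13.34 in WT MEFs. It fell by 2.43 in DM MEFs, its difference in TM was 0.20, and the mutants differed by 2.62 (adjusted p = 3.06e-12 from limma). Ptges, the prostaglandin E synthase gene, fell by 2.63 in DM MEFs, its difference in TM was -0.52, and TM minus DM was 2.11 (adjusted p = 7.60e-11). The oxidised-LDL receptor gene Olr1, named after its values were seen, rose by 0.62 in TM and 2.24 in DM MEFs.

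**Figure D4:**
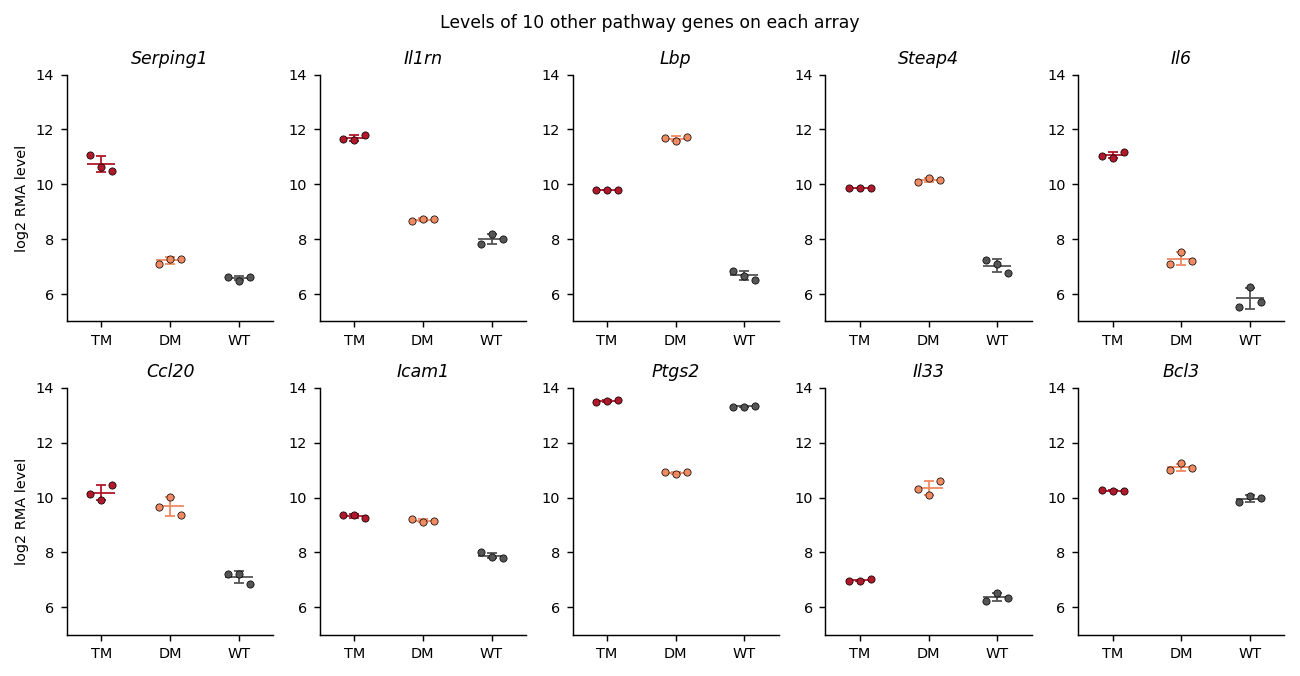
Log2 RMA levels of 10 other acute-phase and NF-kB pathway genes in TM (red), DM (orange) and WT (grey) MEFs. Each point is an array, and the marks with bars give the mean and SD of a genotype (n = 3). Serping1, Il1rn and Il6 are highest in TM, Lbp, Il33 and Bcl3 are highest in DM, and Ptgs2 is lowest in DM MEFs.

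The NF-kB apparatus itself was also listed. Of its 28 subunits, kinases and inhibitors measured, 2 were higher and 1 lower in TM, and 5 higher and 0 lower in DM MEFs, the count of 0 holding at an unadjusted p too. Of all genes, 5.59% were higher and 3.56% lower in TM, and 5.28% higher and 5.67% lower in DM MEFs, so that the counts in TM are near that background. The list median was 0.01 in TM and 0.05 in DM MEFs. Bcl3, which encodes a nuclear IkB protein like IkBζ, averaged 10.25 ± 0.024 in TM, 11.11 ± 0.12 in DM and 9.96 ± 0.12 in WT MEFs (SD, n = 3 each). It rose by 1.14 in DM MEFs, its difference in TM was 0.29, and TM minus DM was -0.86 (adjusted p = 2.35e-06 from limma). Ikbkg, the X-linked gene of the regulatory subunit of the IkB kinase, rose by 1.37 in DM MEFs and its difference in TM was 0.36 (TM minus DM -1.01, adjusted p = 1.06e-06).

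Tnip3 and Tnip1 encode proteins that bind the NF-kB inhibitor A20. Tnip3 rose by 0.95 in TM and 1.75 in DM MEFs, and Tnip1 by 0.81 in DM MEFs, with a difference of 0.11 in TM. The IkB kinase relative Ikbke rose by 0.62 in TM and 0.73 in DM MEFs, and Tab1, an adaptor of the kinase TAK1, fell by 0.81 in TM, with a difference of -0.52 in DM MEFs. The subunits Rela, Relb, Rel and Nfkb2, named after their values were seen, had differences of -0.10 to 0.34 in TM and -0.25 to 0.37 in DM MEFs, and none was called. NF-kB activity is set mainly by where its subunits sit in the cell, which arrays do not measure.

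Among 28 receptors, ligands and adaptors of IL-1, TNF, IL-17 and Toll-like signals, 5 were higher in TM and 6 in DM MEFs, and 0 were lower in either by limma, also at an unadjusted p. Among all genes, 5.59% were called higher and 3.56% lower in TM, and 5.28% higher and 5.67% lower in DM MEFs. The list median was -0.01 in TM and 0.17 in DM MEFs. Il33, which encodes an IL-1 family alarmin, was at 6.95, 6.97 and 7.01 in TM, 10.32, 10.09 and 10.62 in DM and 6.24, 6.52 and 6.33 in WT MEFs. It rose by 0.62 in TM and 3.98 in DM MEFs (TM minus DM -3.36, adjusted p = 2.24e-10 from limma). Il18, of the same family, rose by 1.46 in DM MEFs, with a difference of -0.10 in TM, and the TNF receptor gene Tnfrsf1b rose by 1.00, with a difference of 0.42 in TM. Irak3, an inhibitor of IL-1 and Toll-like receptor signals, rose by 1.78 in TM and 0.72 in DM MEFs (TM minus DM 1.06, adjusted p = 3.37e-07). Tlr3, a receptor for double-stranded RNA, rose by 1.16 and 1.56, Ly96, which encodes the TLR4 partner MD-2, by 1.02 and 0.93, and Tlr1 by 0.94 in TM MEFs, with a difference of 0.56 in DM.

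Of 22 C/EBP relatives and other transcription factors of the response, 1 was higher and 0 lower in TM, and 0 were higher and 4 lower in DM MEFs, both counts of 0 holding at an unadjusted p. Beside these counts stand 5.59% higher and 3.56% lower of all genes in TM, and 5.28% and 5.67% in DM MEFs. The counts in TM are near that background. The list median was 0.12 in TM and -0.10 in DM MEFs. Stat3, the factor that carries the IL-6 signal, was 11.70, 11.67 and 11.68 in TM, 11.47, 11.37 and 11.46 in DM and 11.06, 11.09 and 11.12 in WT MEFs. All TM arrays lay above all DM arrays, and these above all WT arrays. It rose by 0.59 in TM (adjusted p = 2.73e-06 from limma), at the 1.5-fold limit, and its difference in DM was 0.34. The count of 1 became 0 without WT replicate 1 or TM replicate 1 and 2 without WT replicate 3. Of the AP-1 genes, Jun, Fosl1 and Fosb fell in DM MEFs by 0.99, 0.96 and 0.59, and the zinc finger factor Klf6 fell by 0.75. The differences of Jun, Fosl1, Fosb and Klf6 in TM MEFs were -0.27, -0.27, -0.45 and 0.03. Fos, Jund, Junb and Fosl2, also AP-1 genes and named after their values were seen, were not called in either mutant. Their differences in DM MEFs were 0.31, 0.06, -0.22 and -0.14.

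**Figure D5:**
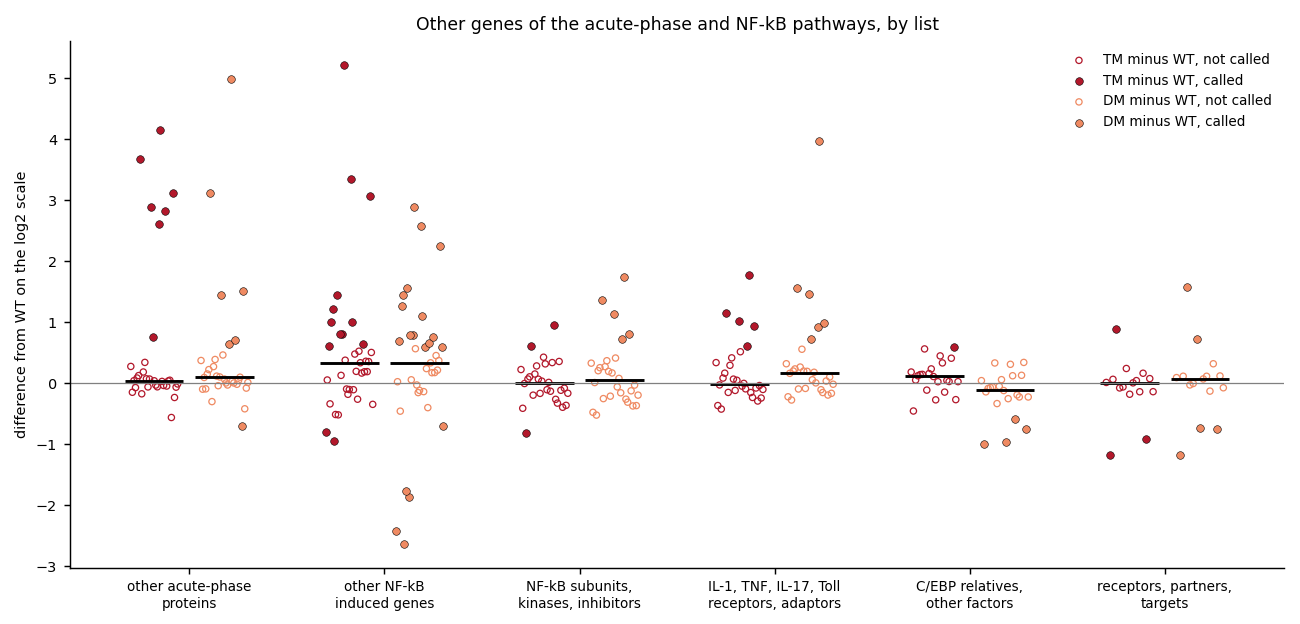
Difference from WT on the log2 scale for every measured gene of 6 pathway lists, in TM (red, left column of each list) and DM (orange, right column) MEFs. Filled points passed the call, open points did not, and black bars are list medians. The medians lie between -0.10 and 0.34, while single genes reach 5.22.

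The genes whose profiles over the 9 arrays ran closest to those of Lcn2, Saa3 and Serpina3n were found by the root mean square difference between profiles, each gene centred on its own mean. This is a description over 9 arrays of 3 genotypes, dominated by the size of the steps between genotypes. Lcn2 and Saa3 were each other's nearest gene, at 0.31 on the log2 scale. After Saa3, Lcn2 was nearest to Cyp1b1 (0.47), Pcdh9 (0.56), Rarres1 (0.56) and Pcdh7 (0.61). Saa3 was next nearest to Rarres1 (0.44), Sfrp2 (0.52), Serpina3n (0.70) and Pcdh9 (0.73). Serpina3n ran closest to Ndn (0.23), which differed from WT by 4.74 in TM and 2.69 in DM MEFs, and then to Sfrp2 (0.35), Gria3 (0.37), Sfrp1 (0.39) and Tmem47 (0.40). Of the other members, Ptx3 stood at rank 101, 75 and 52 in nearness to Lcn2, Saa3 and Serpina3n, and Cebpd at rank 291, 296 and 317. Hp, Nfkbiz, Cebpb, Nfkbia and Orm1 stood further off. Their ranks ran from 433 for Hp to 9627 for Orm1, both in nearness to Serpina3n.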

How the data were processed

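RNA of TM, DM and WT MEFs was hybridised to Affymetrix Gene ST arrays, 3 of each genotype. The authors' deposited values are log2 RMA levels per probe set, already background-corrected, normalized between arrays and summarised, so a shift common to a whole array was removed before deposit. RMA is named in the submitters' processing notes without a version. Of 35556 probe sets, 21789 carried 1 gene symbol in the platform annotation, 1621 several and 12146 were not listed or had no symbol. The 1621 and 12146 were left out. Identifiers were looked up in the RefSeq table of GRCm38.p6 (21698 matched, 0 symbols changed), and the brightest probe set over all arrays stood for each of the 999 genes with several, which gave 19938 genes. The number of arrays limits the precision.

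A single limma model (version 3.58.1, R 4.3.3) took in all 9 arrays (6 residual degrees of freedom), with Benjamini-Hochberg adjustment over all genes and the study's 1.5-fold limit. The script was tested on simulated data. The members, the gene lists, the motifs and the tests were chosen with earlier results of these data known. Genes named are the 10 members, the mutated genes and Xist, from each pathway list up to 4 called genes with the largest change in each mutant, the 5 nearest profiles of Lcn2, Saa3 and Serpina3n, measured paralogs, and the brightest or called markers. Some genes that this rule gives were left unnamed. Alternatives were another probe set choice, a filter on dim genes, median centring, quantile and cyclic loess normalization, trended and robust variances and array weights. Others were an unpaired t-test of each gene, fits of 6 arrays, other fold limits and the replicate number as a block. Each array was also left out in turn, and a looser kappaB motif was used. The study's methods name Student's t-tests for paired samples. For the arrays they asked that genes pass with both RMA and another algorithm, PLIER, and only RMA values were used here. Listed genes without a probe set of their own were not analysed here.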

Additional observations from a re-analysis of the deposited data

How the results depend on the processing

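No direction of a called difference of the 10 genes reversed under any alternative. The counts of members called higher were 7 in TM and 5 in DM MEFs, and 4 for TM against DM, with every array left out in turn. They were the same with trended and robust variances, array weights, an unpaired t-test with or without Benjamini-Hochberg adjustment and fits of 6 arrays. The other choice of probe set could not change the members' values, since each had 1 probe set, so its equal counts tell nothing. No pairing of the arrays by replicate number was seen, though such a check cannot exclude it. Deviations from the genotype means correlated at -0.24 to 0.17 between arrays of the same number and at -0.36 to 0.25 between others, and 1 of 9 arrays correlated best with its own number. With the replicate number as a block, the members called were again 7 in TM and 5 in DM MEFs and 4 in TM against DM, and none of the counts of the lists moved by over 1.5 times.

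Without a fold limit, members called higher were 10 in DM MEFs, and 7 were higher and 1 lower in TM than in DM. Other acute-phase proteins then had 1 lower in TM and 2 lower in DM. NF-kB subunits, kinases and inhibitors had 8 higher and 7 lower in TM, and 11 higher and 9 lower in DM. Other NF-kB induced genes had 20 higher and 7 lower in TM. Receptors and adaptors had 9 higher and 5 lower in TM, and 12 higher and 3 lower in DM. C/EBP relatives and other factors had 6 higher and 3 lower in TM, and 3 higher and 8 lower in DM, and receptors, partners and targets had 2 higher in TM. With a 2-fold limit, TM against WT no longer called Nfkbiz and gave 6 members, TM against DM no longer called Hp (0.90) and gave 3, and the counts were 0 lower in DM for other acute-phase proteins, 0 higher and 0 lower in TM and 3 higher in DM for NF-kB components, 7 higher and 0 lower in TM and 7 higher in DM for NF-kB induced genes, 3 higher in each mutant for receptors and adaptors, 0 higher in TM and 0 lower in DM for C/EBP relatives, and 0 higher and 1 lower in TM and 1 higher and 1 lower in DM for receptors, partners and targets.

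A filter on dim genes, which leaves fewer genes to count, removed Hp, so that 6 members were called in TM and 3 in TM against DM. It gave 1 NF-kB component, 7 NF-kB induced genes and 3 receptors and adaptors higher in TM, and 1 receptor, partner or target higher in DM. Median centring gave 1 other acute-phase protein lower in TM, 1 NF-kB component higher in TM and 1 lower in DM, 4 NF-kB induced genes lower in TM and 0 C/EBP relatives higher in TM. Quantile normalization gave 1 other acute-phase protein lower in TM and cyclic loess 2 C/EBP relatives higher in TM. With 1 array left out, the counts that moved by over 1.5 times were 0 to 2 C/EBP relatives and other factors higher in TM, 1 to 2 NF-kB components higher in TM and 0 to 1 other acute-phase proteins lower in TM. The causes of these shifts in scaling were not tested. The looser kappaB motif was in 6 member promoters, against 1 for the stricter. Signal limits Orm1, which lay below the array medians on all arrays, and Hp in DM and WT MEFs.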

Other observations

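Receptors, partners and targets of the secreted members were listed too. Of 15 measured of 20 listed, 1 was higher and 2 lower in TM, and 2 higher and 3 lower in DM MEFs, with a median of 0.01 in TM and 0.07 in DM beside -0.03 and 0.02 over all genes. Of all genes, 5.59% were higher and 3.56% lower in TM, and 5.28% higher and 5.67% lower in DM MEFs, and nothing particular to the list is read from its counts. P2rx7, an ATP-gated channel gene, rose by 0.89 in TM (adjusted p = 5.01e-06 from limma) and 1.58 in DM MEFs (adjusted p = 1.85e-08), and all 3 TM arrays held 1 value, 8.62. Lgals3, which encodes galectin 3, fell by 1.18 in TM and 1.17 in DM MEFs, and Scarb1, a scavenger receptor gene whose protein binds serum amyloid A, by 0.92 and 0.75. Tnfaip6, whose protein TSG-6 binds pentraxin 3, fell by 0.73 in DM MEFs, its difference in TM was 0.17, and TM minus DM was 0.89 (adjusted p = 9.41e-06 from limma). Fgf2, whose protein is also bound by pentraxin 3, was named after its values were seen and rose by 0.72 in DM MEFs, with a difference of 0.24 in TM.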
